A study of Homo sapiens with 4 samples.

Results

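The 10 genes studied are of the PARP and SP100 families, together with DTX3L and PML. They were followed in HCC1954 cells, a human breast cancer cell line with amplified ERBB2. The genes were taken by name, and are PARP9, PARP10, PARP12, PARP14, DTX3L, SP100, SP110, SP140L, PML and PARP1. All but PARP1 are listed as interferon-linked, and PARP1 stands beside them as a family member that is not. These 10 genes are among the 58735 in the table of read counts and among the 15817 that passed the filter on low counts. Both groups carried a GIPZ hairpin vector, a scrambled hairpin in shCON and a hairpin against the palmitoyltransferase ZDHHC15 in shZDHHC15, with 2 samples in each group. The labels describe a transient transfection with harvest after 36 h, while the study also describes stable knockdown cells. Neither says whether the samples of a group came from separate cultures, so p-values measure the spread between these samples, which may be technical.

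PARP enzymes move ADP-ribose from NAD+ onto proteins, either as single units or as chains. PARP1 builds chains at DNA breaks. PARP10, PARP12 and PARP14 add single units, and PARP9 works as a partner of the ubiquitin ligase DTX3L. PML and SP100 are the founding proteins of PML nuclear bodies, dots in the nucleus that are held together by SUMO and gather many regulatory proteins. SP110 and SP140L are relatives of SP100 and lie beside it on chromosome 2. Interferons act through JAK kinases on transcription factors, STAT2 and IRF9 among them, that bind a DNA element called ISRE, and a different element called GAS is known from the response to interferon gamma.

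Promoters of some of these genes show the letters that such factors are known to read. Stretches of promoters are shown here because several of the genes lie in clusters and share some letters. RefSeq promoter windows on GRCh38.p14, from 250 bases before to 50 after a gene's start, were matched by symbol for 8 of the 10 members, with 11 windows in all. The promoters of PARP10 and PML were not analysed here. The ISRE core was searched as GAAANNGAAA and the GAS core as TTCNNNGAA on both strands. The ISRE core was found in PARP9, DTX3L, PARP14 and PARP12. It was found in 3.57% of all 35116 windows and for 4.38% of all 27305 gene symbols. PARP9 had 2 windows and held it in 1. In the stretches below, written 5′ to 3′ on the strand of each gene, capitals mark the match, which reads as its reverse complement where it lies on the other strand.
PARP9, minus strand, chr3:122564322-122564351: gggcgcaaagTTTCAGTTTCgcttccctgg
DTX3L, plus strand, chr3:122564322-122564351: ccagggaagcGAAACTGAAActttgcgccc
PARP14, plus strand, chr3:122680794-122680823: gagttTTCCAGGAAacGAAAGCGAAAgagt
PARP12, minus strand, chr7:140062942-140062971: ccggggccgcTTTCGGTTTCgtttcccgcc
PARP9 and DTX3L start from opposite strands, and their stretches are the same bases, so the pair has 1 match and not 2. It lies from base -6 to base 3 of the DTX3L start and inside an untranslated exon of DTX3L. In PARP14 the first run of capitals is a GAS core, which was found in 7.66% of all windows, and the second is the ISRE core. The matches of PARP14 and PARP12 also lie in untranslated exons of those genes in GENCODE release 29.

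No window of SP100, SP110, SP140L or PARP1 held the ISRE core as spelled. The SP genes shared a shorter element, AAGTGAAA, which was picked after their sequences had been seen and occurs in 1.62% of all windows. SP110 had 2 windows and held it in both, SP140L held it in its 1 window and SP100 in 1 of 2. Capitals mark it in the next stretches, 1 for each gene, together with a GAS core in SP110, where it is the last run of capitals.
SP110, minus strand, chr2:230220010-230220039: aaacTTTCACTTttcttTTCTCGGAAgccc
SP140L, plus strand, chr2:230327095-230327124: taaataaatacTTTCACTTttcttttcccc
SP100, plus strand, chr2:230416126-230416155: aggttaaatacTTTCACTTctcttttcccc
The SP110 and SP100 matches lie in untranslated exons of those genes, and that of SP140L lies in no annotated exon. The windows of SP140L and SP100 aligned with 89.6% identical bases over 279 columns, so that their shared letters are not separate observations. A match describes letters in a window and does not show that a factor binds there.

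In shZDHHC15 cells, 9 of the 10 members were higher than in shCON cells, 8 of them by more than 1 on the log2 scale, and PARP1 did not pass the test. A log2 fold change is the fitted shZDHHC15 level over the shCON level, and a gene is called where edgeR's quasi-likelihood test gives an adjusted p under 0.05 after Benjamini-Hochberg adjustment over all genes tested. The number of members lower was 0 by edgeR, 0 by DESeq2 and 0 at an unadjusted p under 0.05. The median log2 fold change of the 10 was 2.03, and the rises of the 9 ran from 0.97 for SP140L to 2.97 for SP110. Changes were common in these cells, since 42.0% of all 15817 genes tested were called at an adjusted p under 0.05. Calls in the higher direction made up 21.7% of the genes tested, and calls with a log2 fold change over 1 made up 7.51%. Both shZDHHC15 samples lay above both shCON samples for each of the 9 genes, an order found in 37.2% of all genes tested, whose median log2 fold change was 0.02. The members were chosen with earlier results of these data known, so no test was made of them as a list.

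**Figure D1:**
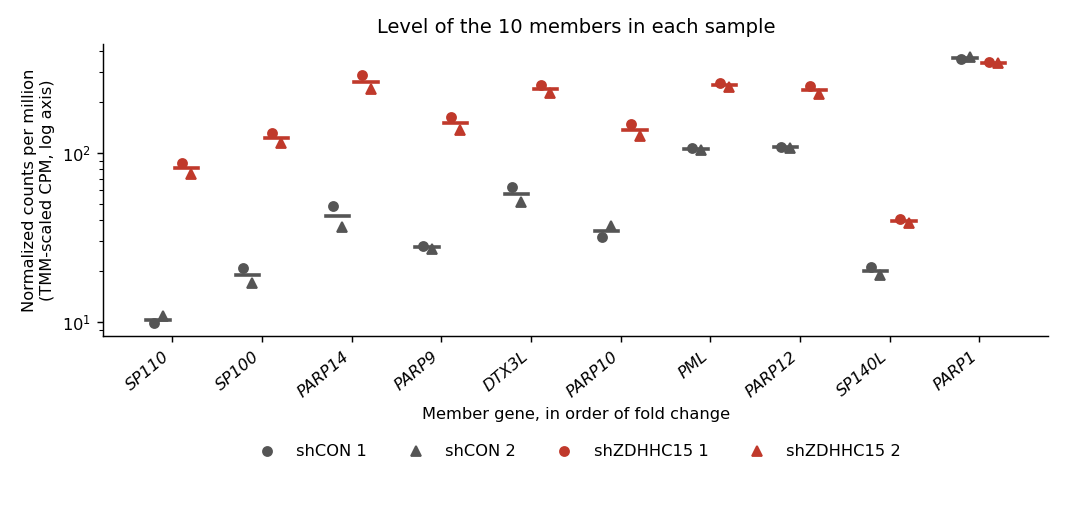
Normalized level (TMM-scaled CPM, that is counts per fixed library size, on a log axis) of the 10 members in each of the 4 samples, in order of fold change, with shCON in grey, shZDHHC15 in red and the group mean as a line. The shZDHHC15 samples lie above the shCON samples for 9 genes, from SP110 at 75.5 to 86.8 against 9.87 to 10.8 down to SP140L at 38.4 to 40.5 against 19.0 to 21.2, while PARP1 lies between 338 and 368 in all samples.

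SP110, a nuclear body protein whose loss causes an inherited liver disease with immunodeficiency, had the largest rise of the members. Its gene (ENSG00000135899, chr2:230167293-230225729, minus strand) had 180 and 182 counts in shCON and 1616 and 1482 in shZDHHC15. The log2 fold change was 2.97 ± 0.13 (SE), or 7.86-fold (edgeR adjusted p = 2.42e-10). Exons of SP110 share 18.4% of their bases with the antisense transcript AC009950.1, which held 2 to 39 counts, and strand use in counting is not given in the sources used here.

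SP100 itself (ENSG00000067066, chr2:230415942-230544090, plus strand), the SUMO-modified antigen that marks PML bodies, had 379 and 286 counts in shCON and 2449 and 2256 in shZDHHC15. This was a rise of 2.70 ± 0.13, or 6.52-fold (edgeR adjusted p = 4.70e-10). SP140L (ENSG00000185404, chr2:230327184-230403732, plus strand) lies between SP110 and SP100 and had 387 and 320 counts in shCON and 754 in each shZDHHC15 sample. Its rise of 0.97 ± 0.12, or 1.96-fold, was the smallest of the 9 (edgeR adjusted p = 1.97e-05). SP140L shares a stretch of 371 bases with 99.7% identity with SP140, so reads from that stretch are uncertain, although SP140 itself held 11 to 27 counts.

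The ratio of SP140L to SP100 per kilobase of exon turned over between the groups. It was 2.28 and 2.50 in the shCON samples and 0.688 and 0.746 in the shZDHHC15 samples, so that SP140L had the higher level in shCON and SP100 in shZDHHC15. SP110 to SP100 was 0.873 and 1.17 in shCON and 1.21 and 1.21 in shZDHHC15. These ratios are taken within a sample and do not depend on library scaling. A test of 2 samples against 2 by permutation cannot go below p = 0.333 (two-sided exact permutation), so they are given as values. Gene length can still shift the ratios, since SP100 has 12618 exon bases and SP140L 5650. With a gene length trend removed per sample, as described below, the rise of SP100 was 2.40 and that of SP140L 0.92.

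PML, the scaffold of the bodies (ENSG00000140464, chr15:73994673-74047812, plus strand), started from a higher level. It had 1946 and 1755 counts in shCON and 4812 and 4807 in shZDHHC15. The rise was 1.26 ± 0.09, or 2.39-fold (edgeR adjusted p = 7.88e-08).

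PARP14, a large enzyme with macrodomains and a known cofactor of STAT6, led the PARP genes. The gene (ENSG00000173193, chr3:122680618-122730840, plus strand) had 881 and 618 counts in shCON and 5362 and 4689 in shZDHHC15, a rise of 2.63 ± 0.13 or 6.19-fold (edgeR adjusted p = 1.14e-09). The second shCON sample lay below the first by -0.40 on the log2 scale in normalized level, the widest gap among the members, and leaving out 1 sample at a time moved its rise between 2.43 and 2.81.

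PARP9 and DTX3L are neighbours that start head to head, and their proteins form a complex that acts on histones and at DNA damage. PARP9 (ENSG00000138496, chr3:122527924-122564577, minus strand) had 512 and 459 counts in shCON against 3050 and 2692 in shZDHHC15, a rise of 2.44 ± 0.12 or 5.44-fold (edgeR adjusted p = 5.72e-10). DTX3L (ENSG00000163840, chr3:122564238-122575203, plus strand) had 1151 and 870 against 4725 and 4441, a rise of 2.06 ± 0.11 or 4.18-fold (edgeR adjusted p = 3.03e-09). DTX3L was the more abundant of the pair in all 4 samples. The ratio of PARP9 to DTX3L per kilobase was 0.292 and 0.346 in shCON and 0.424 and 0.398 in shZDHHC15, so it was higher in both shZDHHC15 samples while DTX3L stayed ahead. The pair share 217 exon bases on opposite strands, 2.43% of those of PARP9 and 3.70% of those of DTX3L, and reads there cannot be told apart without strand.

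PARP10, which was first found as a partner of MYC, and PARP12, a zinc finger protein with antiviral activity, followed. PARP10 (ENSG00000178685, chr8:143977153-144012772, minus strand) had 581 and 622 counts in shCON and 2745 and 2482 in shZDHHC15, a rise of 1.99 ± 0.12 or 3.99-fold (edgeR adjusted p = 5.94e-09). It shares 324 exon bases with GRINA on the other strand, a gene with 2850 to 4063 counts. PARP12 (ENSG00000059378, chr7:140023744-140063721, minus strand) had 1986 and 1800 counts in shCON and 4622 and 4411 in shZDHHC15. Its rise of 1.13 ± 0.09, or 2.19-fold, was close to that of PML (edgeR adjusted p = 3.23e-07).

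PARP1, the abundant enzyme of DNA repair (ENSG00000143799, chr1:226360691-226408079, minus strand), held 6581 and 6210 counts in shCON and 6447 and 6644 in shZDHHC15. The log2 fold change was -0.09 ± 0.09, with a 95% confidence interval from -0.27 to 0.09 (edgeR adjusted p = 0.424). After scaling to library size its shCON samples stood at 361 and 368 CPM (counts scaled by TMM, edgeR's trimmed-mean factors) and its shZDHHC15 samples at 346 and 338. The groups thus did not overlap, as was so for 11464 of the 15817 genes tested. PARP1 had a margin between groups smaller than the error of the fit. It was not called under any of 13 other settings, in which its adjusted p lay between 0.0654 and 0.896.

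Ordered by fold change, the members fell into steps in the reported fit. SP110 differed from SP100, SP100 from PARP14 and PARP14 from PARP9 by less than 2 combined standard errors. So did DTX3L from PARP10, PML from PARP12 and PARP12 from SP140L. Only genes next to each other in the order were compared, so the ends of a step, such as SP110 at 2.97 and PARP9 at 2.44, can lie further apart. The combined error treats the errors of 2 genes as independent, although both were measured in the same samples. The gaps over 2 combined standard errors were those from PARP9 to DTX3L (0.38), from PARP10 to PML (0.74) and from SP140L to PARP1 (1.06). The steps depend on the setting. With a gene length trend removed per sample, as described below, PARP9 stood at 2.25 ± 0.11 and DTX3L at 2.01 ± 0.10. SP110 then stood at 2.87 ± 0.12 and SP100 at 2.40 ± 0.11. Without shCON sample 1, PARP9 stood at 2.44 and DTX3L at 2.19. SP110 and SP100, with the lowest shCON levels per kilobase, had the largest rises, but SP140L at 3.56 CPM per kilobase rose less than PARP9 at 3.09.

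Levels of different genes were compared per kilobase of merged exon length. In shCON, PARP1 came first at 50.9 ± 0.71 CPM per kilobase (SD, n = 2), followed by PARP12 at 17.2 ± 0.25 and DTX3L at 9.77 ± 1.39. PML, PARP10, PARP14, SP140L and PARP9 followed between 8.33 and 3.09, and SP110 and SP100 were last, with samples between 1.34 and 1.65. PARP14 and SP140L overlapped in their samples, as did SP110 and SP100. In shZDHHC15, PARP1 was still first at 47.8 ± 0.77, but DTX3L at 40.9 ± 3.32 and PARP12 at 37.6 ± 2.65 came close to it and overlapped each other. PARP14 (25.1 ± 3.31) and PARP10 (22.7 ± 2.46) overlapped in turn, PML, PARP9, SP110 and SP100 lay between 19.9 and 9.77, and SP140L was last at 6.98 ± 0.26.

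Set against PARP1 in the same sample, DTX3L went from 0.214 and 0.171 of the PARP1 level in shCON to 0.895 and 0.817 in shZDHHC15. PARP12 went from 0.344 and 0.331 to 0.818 and 0.757. SP110 went from 0.0286 and 0.0306 to 0.262 and 0.233. None of the 9 genes reached the level of PARP1 in any sample.

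**Figure D2:**
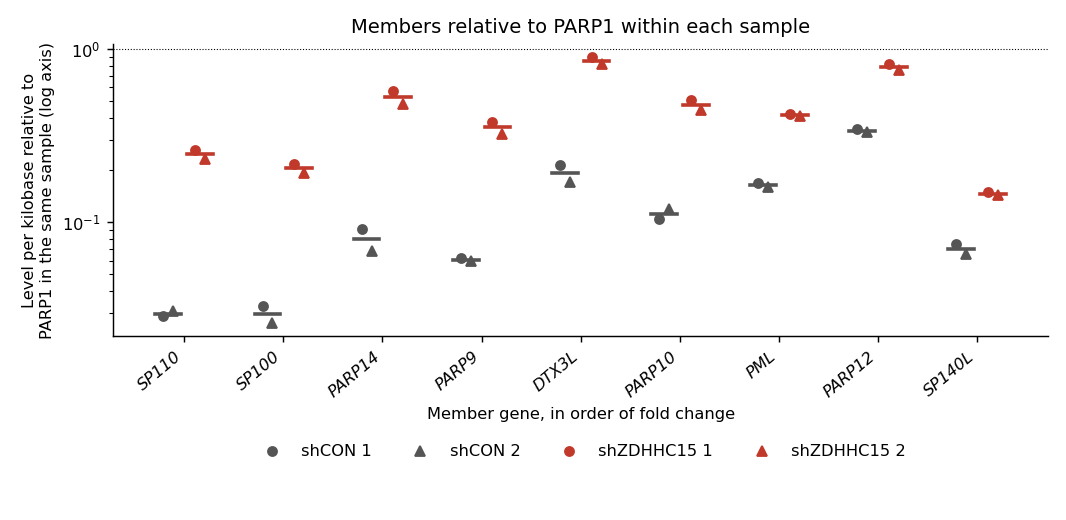
Level per kilobase of each interferon-linked member divided by that of PARP1 in the same sample (log axis, dotted line at equal levels), with shCON in grey, shZDHHC15 in red and the group mean as a line. Every shZDHHC15 point lies above both shCON points of its gene, and the highest is DTX3L at 0.895.

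The other PARP family genes moved less. Of 12 listed, 11 were tested, 7 were higher and 0 lower by edgeR, with a median log2 fold change of 0.46. The share higher was 63.6%, against 21.7% of all genes tested. DESeq2 called 5 higher and 0 lower, and 1 gene was lower at an unadjusted p under 0.05. The largest rises were those of ZC3HAV1, the zinc finger antiviral protein, which had 840 and 651 counts in shCON and 2532 and 2332 in shZDHHC15 (1.59 ± 0.12), and of PARP8 (1.41 ± 0.14). The smallest that were called were those of PARP2, the closest relative of PARP1 in DNA repair (0.32 ± 0.11, edgeR adjusted p = 0.0258), and of the tankyrase TNKS (0.46 ± 0.18, edgeR adjusted p = 0.0499). TNKS overlapped between the groups and lost its call under 7 of 13 other settings, and PARP2 lost its call under 5. PARP15, which lies between DTX3L and PARP14 and is named here after its values were seen, had 1 count in the 4 samples together and was not tested.

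The genes listed for ADP-ribose removal did not follow, although MACROD2 among them held only 8 to 16 counts. Of 7 tested, 0 were called in either direction by edgeR or DESeq2 and 0 had an unadjusted p under 0.05, with a median of -0.09. The Deltex family, to which DTX3L belongs, had 2 of 4 genes tested, and both were higher, DTX4 by 0.99 ± 0.11 and DTX2 by 0.90 ± 0.10. Among all genes tested, 21.7% were higher and 20.3% lower.

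Of 13 repair partners of PARP1 tested, 4 were higher and 3 lower, with a median of -0.02. These shares of 30.8% and 23.1% lay near the 21.7% and 20.3% of all genes tested. PRKDC, the DNA-dependent protein kinase, rose by 0.86 ± 0.13, and CHD1L, a chromatin remodeller that binds ADP-ribose chains, by 0.62 ± 0.10. HPF1, the factor that directs PARP1 to serine, fell by 1.02 on the log2 scale, from 560 and 425 counts to 270 and 257 (SE 0.14), and POLB, the base excision polymerase, fell by 0.46 (SE 0.10). The count of higher genes was 2 without shZDHHC15 sample 1 and 2 without the filter on low counts.

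Among partners of PML bodies, 10 of 24 were higher and 2 lower, with a median of 0.28. These shares were 41.7% and 8.33%, against 21.7% and 20.3% of all genes tested. The count of higher genes was 4 without the filter on low counts. ISG20, an interferon-induced exonuclease, rose by 2.65 ± 0.17, and the kinase HIPK2 by 1.44 ± 0.17. SUMO3, a SUMO protein, fell by 0.62 on the log2 scale (SE 0.09). The count of lower genes was 1 without shCON sample 2, without shZDHHC15 sample 1 and without shZDHHC15 sample 2.

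The interferon signalling genes were listed to show how known parts of that pathway stood in the same samples. Whether they act on the members in these cells was not tested. Of 20 tested, 14 were higher and 0 lower by edgeR, with a median of 0.83. The share higher was 70%, against 21.7% of all genes tested. DESeq2 called 13 higher and 0 lower, and 1 gene was lower at an unadjusted p under 0.05. USP18, which switches off the type I receptor, had the largest rise, from 151 and 130 counts to 1806 and 1570 (3.47 ± 0.14). STAT2 (1.90 ± 0.10) and IRF9 (1.88 ± 0.24), named after their values were seen because they act at ISRE, were higher as well. The smallest called rises were those of the receptor chain IFNAR1 (0.32 ± 0.10) and the inhibitor SOCS3 (0.40 ± 0.13), each of which lost its call under 4 of 13 other settings.

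**Figure D3:**
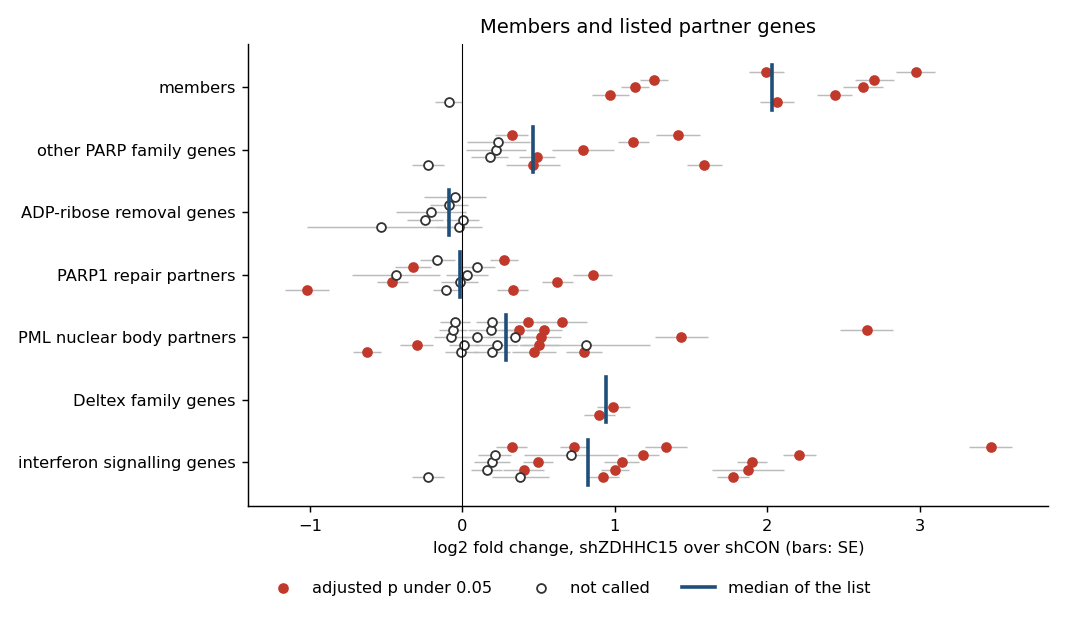
Log2 fold change (shZDHHC15 over shCON) with SE of each tested member and partner gene, filled where the adjusted p was under 0.05, with the median of each list as a vertical line. The members have a median of 2.03 against 0.83 for interferon signalling genes, 0.46 for other PARP genes and -0.09 for ADP-ribose removal genes.

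Since 6 members lie in 2 clusters, the protein-coding genes within 500 kb of each cluster were examined. Around PARP9, DTX3L and PARP14, 10 of 13 neighbours were tested, 3 were higher and 1 was lower, with a median of 0.14. These were 30% and 10% of those tested, against 21.7% and 20.3% of all genes tested. The called ones were CSTA (1.03 ± 0.17), PDIA5 (0.53 ± 0.13), FAM162A (0.41 ± 0.14) and CCDC58, which fell by 0.49 (SE 0.14). The calls of FAM162A and CCDC58 were each lost under 4 of 13 other settings, that of CCDC58 without shCON sample 2 or shZDHHC15 sample 1. KPNA1, the next gene beyond PARP9, had 51.2 and 50.9 CPM in shCON and 55.2 and 50.6 in shZDHHC15 and was not called.

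Around SP110, SP140L and SP100, 8 of 10 neighbours were tested, 5 were higher and 0 lower by edgeR, with a median of 0.84. The share higher was 62.5%, against 21.7% of all genes tested. DESeq2 called 4 higher and 0 lower, and 1 gene was lower at an unadjusted p under 0.05. SLC16A14 rose by 1.68 ± 0.26 from 30 and 27 counts to 100 in each shZDHHC15 sample. DNER (1.03 ± 0.24), TRIP12 (0.92 ± 0.11), C2orf72 (0.87 ± 0.32) and CAB39 (0.28 ± 0.09) were the other called genes, and C2orf72 and CAB39 each lost the call under 4 of 13 other settings. The count of higher genes was 3 without shZDHHC15 sample 1 and 3 without the filter on low counts. SP140, the family member between SP110 and SP140L, had 11 and 15 counts in shCON and 23 and 27 in shZDHHC15 and did not pass the test (0.81 ± 0.42).

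**Figure D4:**
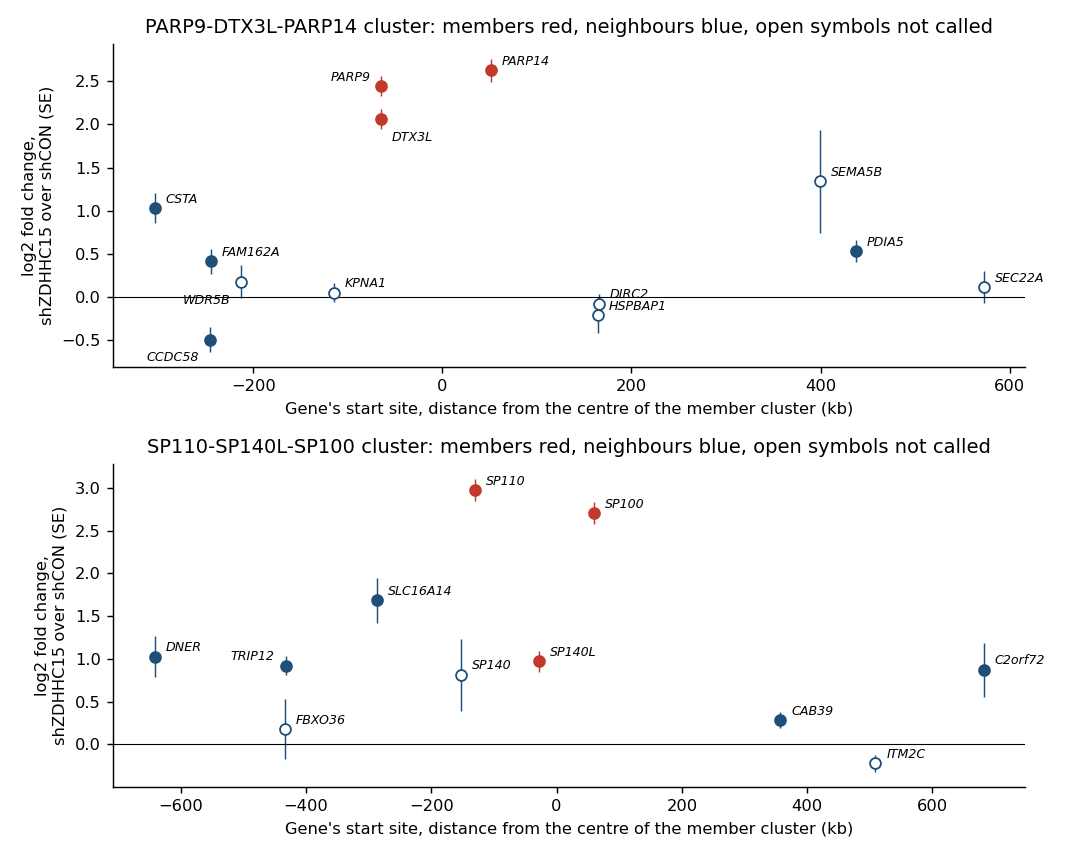
Log2 fold change (shZDHHC15 over shCON, bars SE) of tested protein-coding genes against the distance of their start site from the centre of each member cluster in kilobases, members in red, neighbours in blue, open symbols not called. PARP9, DTX3L and PARP14 lie at 2.06 to 2.63 and their called neighbours at -0.49 to 1.03, while SP140L at 0.97 lies below SLC16A14 at 1.68.

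The genes most like the 9 interferon-linked members were sought by the distance of log2 CPM, centred over the 4 samples, from the members' mean profile, among 12947 protein-coding genes. The nearest were ZNF22 (distance 0.0943), EIF2AK2 (0.0957), SRCIN1 (0.107), SOD2 (0.114) and CFB (0.117). Among the members, DTX3L (0.143) and PARP10 (0.224) lay nearest to their own mean and SP140L (1.05) farthest. EIF2AK2, the kinase PKR that senses double-stranded RNA, had 1467 and 1181 counts in shCON and 6104 and 5355 in shZDHHC15. ZNF22 rests on 6 and 7 counts in shCON and 36 and 37 in shZDHHC15. This measure rests on 4 samples in 2 groups.

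The libraries held between 17560982 and 19118704 counts. ZDHHC15, the targeted gene, had 17617 and 15716 counts in shCON and 0 in both shZDHHC15 samples, at least 6045-fold lower against a floor of 3 counts per library. A hairpin usually leaves some transcript, and the sources used here do not say how a count of exactly 0 arose, so shZDHHC15 is used as the label of these samples. Of 18 blood cell markers (leukocyte genes and HBB), 8 were at 0 in all samples, and PTPRC had 1 to 4 counts. The list summed to 11.2 and 13.2 CPM in shCON and 7.25 and 7.85 in shZDHHC15. Of these markers 3 were tested, CD14 was higher (1.61), and CSF1R (-1.06) and CD8A (-1.29) were lower. DESeq2 called 0 higher and 1 lower. CSF1R had 153 and 177 counts in shCON and 68 and 105 in shZDHHC15. Stromal and endothelial markers summed to 62.9 and 64.3 CPM in shCON and 119 and 110 in shZDHHC15, and LUM was at 0. Of 10 listed, 4 were tested, 3 were higher (PECAM1 by 2.91, CDH5 and COL1A1 by 0.65 each) and KDR was lower (-0.64). Of 9 epithelial markers tested, 2 were higher, ESR1 (1.09) and KRT19 (0.44), and 6 were lower. The lower ones were KRT8 (-1.62), KRT18 (-1.58), KRT7 (-0.99), GRB7 (-0.39), EPCAM (-0.35) and ERBB2 (-0.24). Over all genes tested, 21.7% were higher and 20.3% lower. The part of the marker shifts in the members' rises was not tested. In bulk RNA, more cells with a transcript and more transcript per cell cannot be told apart.

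Gene length moved with the groups. Among genes with at least 20 counts in every sample, those under 2000 bases changed by a median of -0.29 on the log2 scale, against 0.25 for those of 8000 bases and over. The second shCON sample differed from the first along length too, by a median of 0.13 for the shortest and -0.13 for the longest genes. The members are 5650 to 12657 bases long. With a length trend removed per sample, a setting added after seeing the data, the 9 genes were still called and the rises of PARP14, SP100 and PML were 2.38, 2.40 and 0.94.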

How the data were processed

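RNA of 2 shCON and 2 shZDHHC15 samples of HCC1954 cells was analysed. The authors deposited raw read counts per gene, not normalized, with positions and gene lengths. Per the labels, libraries were made with the NEBNext Ultra kit, and the submitters' processing notes name HISAT2, SAMtools, StringTie and hg38, without roles. The counting settings and use of strand are not given in the sources used here. All 58735 identifiers matched GENCODE release 29. Counts were fitted with edgeR 4.0.16 (R 4.3.3; filterByExpr, TMM, glmQLFit, glmQLFTest) on all 4 samples, and p-values were adjusted by Benjamini-Hochberg over the 15817 genes tested. A gene was called at an adjusted p under 0.05. CPM are TMM-scaled, and levels per kilobase use the deposited length. Standard errors come from the fold change and F statistic. The members and gene lists were chosen with earlier results of these data known. Genes named outside the members were the 2 highest and 2 lowest called genes of a list, or all called genes of a list with 6 or fewer, all called neighbours, and the 5 genes nearest in profile, with other names marked as such, except that 2 genes under this rule are not reported here. Likeness used a pseudocount of 0.1 CPM. The fit was tested on simulated data with few changed genes and no length trend, so that test does not cover the broad changes seen here. Alternatives were DESeq2 1.42.0, other scalings and filters, the legacy dispersion, a replicate block, leaving out each sample and a length trend. Totals of 17560982 to 19118704 counts per sample set the counting precision, with a floor of 3 counts for genes at 0.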

Additional observations from a re-analysis of the deposited data

How the results depend on the processing

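The 9 rises of the members and the absence of a call for PARP1 kept their direction and side of the threshold under all 13 alternatives, which were 3 other scalings, 2 other filters, the legacy dispersion, DESeq2 in place of edgeR, the replicate block, 4 fits that each left out a sample, and a gene length trend added after seeing the data. Members higher by over 1 numbered 7 with the length trend, where PML stood at 0.94, and 8 or 9 otherwise. The order of levels per kilobase was the same for all 10 members in both groups under 3 other scalings. A scaling multiplies all genes of a sample alike, so this order could hardly change and its stability is no check.

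Same-numbered samples deviated together with a correlation of only 0.0344, so the numbers were not taken to pair them. With the replicate block, 7225 genes were called against 6644, the 9 members were still called, and the block changed no call named in the text.

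Counts of genes in lists changed most without a filter on low counts, which tested 30168 genes: 2 higher repair partners of PARP1 (4 in the reported fit), 4 higher and 1 lower partners of PML bodies (10 and 2), 0 lower neighbours of PARP9, DTX3L and PARP14 (1), 3 higher neighbours of the SP genes (5), and 2282 higher genes in all (3427). With library size only, 1 partner of PML bodies was lower. With the length trend, 1 gene of ADP-ribose removal was lower and 0 neighbours of PARP9, DTX3L and PARP14 were. Leaving out 1 sample at a time gave 0 to 1 lower genes among other PARP genes, interferon signalling genes and the neighbours of either cluster, 2 to 4 higher repair partners, 1 to 2 lower partners of PML bodies and 3 to 4 higher neighbours of the SP genes. A lone sample was then assumed to vary like the other group. The causes were not tested.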
